A study of Mus musculus with 25 samples.

Results

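The TAM receptors Tyro3, Axl and Mertk and their ligands Gas6 and Pros1 were followed as 5 genes, taken by symbol from a count table of 21720 genes. All 5 of 5 passed the filter on low counts, which left 16515 genes for testing. RNA of the brain cortex was sequenced from 25 male mice aged 6 months, 5 mice in each of 5 groups. The wild type group was C57BL/6J given vehicle. The other 4 groups were mice of strain B6C3 that carry APPswe and PSEN1dE9, an amyloid model, and were divided by injection into vehicle (the model control), (-)-Vestitol alone (5 mg/kg), Salviolone alone (5 mg/kg) and a combination with 2.5 mg/kg of either compound. Injections were intraperitoneal, once a day for 3 months, in wild type mice too. In this line both transgenes are driven by the mouse prion protein promoter, which directs expression mainly to central neurons. Salviolone is a diterpenoid from sage species, and (-)-Vestitol an isoflavan from plants. Because wild type and model mice differ in strain as well as in the transgenes, any difference from wild type belongs to both. The 2 cannot be told apart. Where mice given a compound are set against wild type, also in the mean over all transgenic mice, the compound differs as well. In such a comparison it cannot be told apart from strain and transgenes. A donepezil group that the treatment protocol names was not analysed here.

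TAM receptors are receptor tyrosine kinases on the cell surface. Gas6 binds each of them, whereas Pros1 (protein S, also an anticoagulant cofactor in plasma) binds Tyro3 and Mertk. Both ligands need vitamin K-dependent carboxylation to attach to phosphatidylserine, the lipid that dying cells and stressed synapses expose, and so link the exposed lipid to the receptor on the engulfing cell. In brain, Tyro3 is mainly a neuronal gene, Mertk serves engulfment by microglia and astrocytes, and Axl is low in resting microglia and known to be raised in microglia that touch amyloid plaques.

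In the coordinates of the deposited tables (mm39), Tyro3 spans chr2:119628214-119648585, Mertk chr2:128540876-128644814, Axl chr7:25456698-25488130, Gas6 chr8:13515374-13544490 and Pros1 chr16:62674670-62749709. The 250 bases before the start of Axl, Gas6 and Pros1 are shown because these were the members that differed from wild type in at least 1 comparison. They come from RefSeq on another build, GRCm38.p6: Axl chr7:25788734-25788983 (minus strand), Gas6 chr8:13494536-13494785 (minus strand) and Pros1 chr16:62854057-62854306 (plus strand). Each reads 5′ to 3′ in the direction of its gene, with matches of the GC box GGGCGG, on either strand, in capitals.
Axl: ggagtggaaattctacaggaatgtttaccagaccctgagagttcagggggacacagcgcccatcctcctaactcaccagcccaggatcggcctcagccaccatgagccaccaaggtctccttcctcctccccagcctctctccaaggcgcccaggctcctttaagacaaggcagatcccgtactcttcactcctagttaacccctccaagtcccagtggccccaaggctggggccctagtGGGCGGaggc
Gas6: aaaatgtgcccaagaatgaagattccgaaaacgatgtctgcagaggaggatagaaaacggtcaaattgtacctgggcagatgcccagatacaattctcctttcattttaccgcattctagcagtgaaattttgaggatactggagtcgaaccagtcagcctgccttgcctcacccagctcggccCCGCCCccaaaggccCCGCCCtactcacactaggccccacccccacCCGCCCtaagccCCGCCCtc
Pros1: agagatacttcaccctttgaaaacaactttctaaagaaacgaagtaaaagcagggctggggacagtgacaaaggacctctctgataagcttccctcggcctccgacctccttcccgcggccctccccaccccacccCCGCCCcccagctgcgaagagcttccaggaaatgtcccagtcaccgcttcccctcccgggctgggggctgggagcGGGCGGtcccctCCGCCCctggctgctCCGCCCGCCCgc

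The GC box was the only one of 5 motifs searched that the members held. Axl had 1 match, Tyro3 and Mertk had 3 each, Gas6 had 4 and Pros1 had 5, where overlapping matches were counted separately. All 5 members thus had at least 1, against 32.94% of 27025 mouse promoters of the same length. No member had AGGTCA (a nuclear receptor site, in 13.84% of promoters), TGANTCA (AP-1, 6.87%), CACGTG (E-box, 6.05%) or GAAANNGAA (an interferon element, 7.16%), each searched on both strands. The windows of the members were 54.8% to 73.2% G and C, and the median over all promoters was 52%. The match counts describe these letters and say nothing of binding.

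Total counts per library ran from 59376320 to 109776852. Every mouse had at least 517 counts for Pros1, the scarcest member, and at least 16283 for Tyro3, so, where each count is a separate fragment, counting error is small beside the spread between mice. App and Prnp, which report the transgenes, were higher in the model control than in wild type by 1.35 and 1.51 on the log2 scale, and the ranges of the mice were apart for both. Neuron markers of the list of 10 summed to 5917 to 7844 CPM over all mice and were present in every library. Their sum was 6511 to 7105 CPM in the combination, below the 7468 to 7833 CPM with vestitol and 7518 to 7768 CPM with salviolone. Markers of neighbouring tissue differed between groups as well. The summed level of 10 hypothalamus markers was 104 to 567 CPM in wild type and 401 to 660 CPM in the combination. It was 78.8 to 254 CPM in the model control, 76.9 to 132 CPM with vestitol and 80.9 to 93.6 CPM with salviolone. Wild type mouse 3 had 6033 CPM of 5 pituitary markers, and no other mouse had more than 5.51 CPM.

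Per unit of transcript length Tyro3 was the most abundant member and Pros1 the least. The deposited FPKM (fragments scaled to gene length and library size) averaged 64.3 ± 4.66 for Tyro3, 44.5 ± 5.02 for Mertk, 26.1 ± 1.58 for Gas6, 16.5 ± 1.40 for Axl and 1.98 ± 0.281 for Pros1 (SD, n = 25 mice). The order between them depends on the gene length used. The lengths implied by counts and FPKM were 4376 bases for Tyro3 and 4087 for Axl, but 1379 for Mertk, against 4336 bases of annotated exons in GENCODE vM21. With the annotated exon lengths the means were 45.4 FPKM for Tyro3, 41.8 for Gas6, 14.1 for Mertk, 13.4 for Axl and 2.74 for Pros1. Mertk thus stood above Gas6 on the first scale and at about the level of Axl on the second, while Tyro3 was highest and Pros1 lowest on both.

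**Figure D1:**
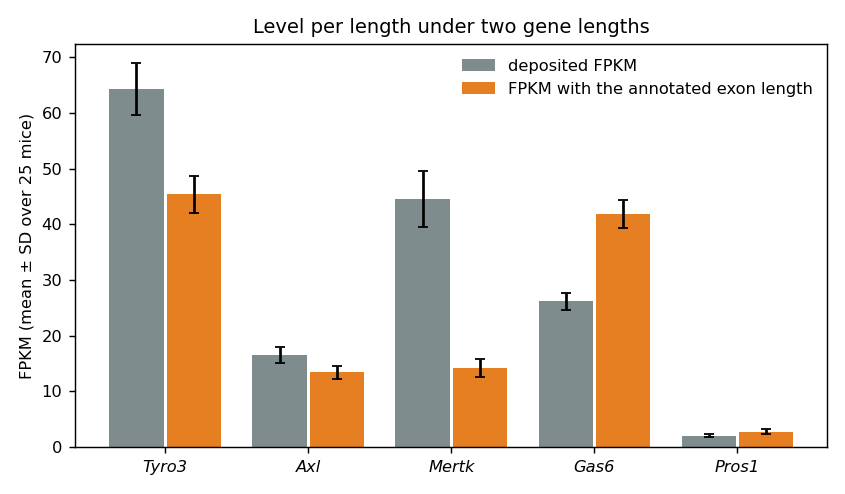
Level per length of each TAM gene as mean ± SD over 25 mice, as the deposited FPKM (grey) and as FPKM computed with the annotated exon length (orange). Mertk stands at 44.5 and 14.1 FPKM and Gas6 at 26.1 and 41.8 FPKM on these scales, and Tyro3 is highest and Pros1 lowest on both.

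Levels below are CPM, counts scaled to the TMM-adjusted library size, in the order of mouse 1 to 5, and a difference is called at an adjusted p under 0.05 over all 16515 genes in edgeR's quasi-likelihood test. No TAM gene differed between the model control and wild type, whereas Axl was higher over all 20 transgenic mice together, and Axl, Gas6 and Pros1 were each higher than wild type in at least 1 single-compound group. None of the 5 differed between any treatment and the model control. Adjacent groups in the order of means, the pairs most likely to overlap, overlapped in range for every member. Ranges were apart for Axl between vestitol and wild type and for Gas6 between either single compound and wild type. They were also apart for Tyro3 between the combination and either single compound. The share of all genes with ranges apart was not counted.

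Axl, the receptor linked to plaque microglia, was lowest in wild type. The wild type mice had 58.2, 56.0, 66.0, 61.9 and 62.9 CPM. The model control had 62.4, 65.8, 71.9, 59.9 and 68.4 CPM. Vestitol mice had 74.9, 73.3, 70.1, 68.8 and 76.5 CPM. All 5 vestitol mice were above the highest wild type mouse, whereas the ranges of wild type and the model control overlapped. Salviolone mice had 66.4, 78.5, 65.5, 75.6 and 68.4 CPM. Combination mice had 67.8, 61.0, 72.7, 67.0 and 62.6 CPM. Both of these groups overlapped with wild type. The means fell in the order vestitol, salviolone, combination, model control and wild type, and the highest group mean was 1.19 times the lowest.

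Over the 20 transgenic mice Axl was higher than in wild type by 0.17 ± 0.05 (log2, SE), with an adjusted p of 0.0201, and 19 of 20 mice were above the wild type mean. In this comparison 1 of 5 members was called, against 14.1% of all genes. Gas6, at 0.11 (adjusted p = 0.0632, 19 of 20 mice above the wild type mean), and Pros1, at 0.21 (adjusted p = 0.119, 17 of 20 mice), did not pass. The call was lost without wild type mouse 1 (adjusted p = 0.0731), 2 (0.0542) or 4 (0.0520), and with the hypothalamus marker score as a covariate (0.0554, log2 0.18). Without wild type mouse 3, the pituitary-rich library, Axl differed by 0.20, with an adjusted p of 0.0162. For the model control alone the difference of Axl was 0.11 (95% interval -0.02 to 0.23), with an adjusted p of 0.297 in edgeR. There 0 of 5 members were called (also 0 by DESeq2 and by limma-voom), against 11.6% of all genes. At an unadjusted p under 0.05 in edgeR the members were 0 of 5 too, against 25.8% of all genes.

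Gas6, the ligand of every TAM receptor, varied little among mice. Wild type mice had 101, 101, 95.2, 103 and 99.5 CPM. The model control had 92.4, 107, 102, 107 and 116 CPM. Salviolone mice had 123, 108, 112, 114 and 109 CPM. The salviolone mice were all above the highest wild type mouse. Vestitol mice had 105, 114, 109.8, 106 and 112 CPM, also all above wild type. Combination mice had 112, 111, 101, 100.4 and 104 CPM and overlapped with wild type. The means fell in the order salviolone, vestitol, combination, model control and wild type, from 113 ± 6.03 to 99.99 ± 2.99 CPM (SD, n = 5).

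Pros1, the ligand of Tyro3 and Mertk, was the scarcest and most variable member. Wild type mice had 8.09, 9.40, 12.2, 10.2 and 9.74 CPM. The model control had 10.8, 11.4, 10.1, 12.5 and 9.88 CPM. Vestitol mice had 11.7, 11.8, 14.8, 10.6 and 15.2 CPM. The wild type and vestitol ranges overlapped through wild type mouse 3, and 2 vestitol mice, 3 and 5, stood above all others. Salviolone mice had 11.4, 12.6, 11.2, 10.998 and 9.53 CPM. Combination mice had 11.4, 9.85, 11.8, 11.1 and 11.6 CPM. The means ran from 12.8 ± 2.04 CPM with vestitol to 9.93 ± 1.51 CPM in wild type.

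Each compound group was also compared with wild type, in comparisons added after the data were seen. They share the same 5 wild type mice, and compound, strain and transgenes differ together in each. With vestitol, 2 of 5 members were called, against 15.4% of all genes. Axl was higher by 0.25 ± 0.06 (log2, SE; adjusted p = 0.00658 in edgeR), with 5 of 5 mice above the wild type mean, and Pros1 by 0.37 ± 0.11 (adjusted p = 0.0237), also in 5 of 5 mice. Gas6 differed by 0.13 with an adjusted p of 0.0972. The call of Pros1 was lost without wild type mouse 1, vestitol mouse 3 or vestitol mouse 5 (adjusted p = 0.0795, 0.0701 and 0.0840) and in a fit of only these 2 groups (0.0974).

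With salviolone, 2 of 5 members were called against wild type, beside 17.8% of all genes. Axl was higher by 0.22 ± 0.06 (adjusted p = 0.0168 in edgeR) and Gas6 by 0.18 ± 0.05 (adjusted p = 0.0173), both in 5 of 5 mice. Axl lost its call without salviolone mouse 2 (adjusted p = 0.0595) and Gas6 without salviolone mouse 1 (0.0607). With the combination, 0 of 5 members were called against wild type, beside 2.23% of all genes. At an unadjusted p under 0.05 the members were also 0 of 5, beside 16.6% of all genes. Axl differed by 0.12 (95% interval -0.01 to 0.25).

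The hypothalamus marker score differed between the groups. The median of the summed markers was 80.1 CPM with vestitol and 84.1 CPM with salviolone, against 434 CPM in wild type and 528 CPM in the combination. In the model control, where no member was called against wild type, the median was 105 CPM. With that score as a covariate, every one of the 5 member calls against wild type was lost, at adjusted p values of 0.0554 (Axl over all transgenic mice), 0.109 and 0.114 (Axl and Pros1 with vestitol), 0.0711 and 0.169 (Axl and Gas6 with salviolone). The log2 differences under the covariate were 0.18, 0.26, 0.44, 0.22 and 0.13 in that order. Summed homeostatic microglia markers moved as well, at 307 to 370 CPM in wild type and 350 to 460 CPM over the transgenic groups. Of 10 plaque microglia markers 7 were higher than in wild type with vestitol, with salviolone and over all transgenic mice. In the 2 groups without a member call, 7 were higher in the model control and 8 in the combination. Of 10 oligodendrocyte markers 5 were higher with vestitol, 6 with salviolone and 5 over all transgenic mice, and none was lower. In the model control 1 of them was higher, and 0 in the combination. Of 8 meninges markers 7 were lower with vestitol (summed level 31.9 to 60.2 CPM, against 84.2 to 141 CPM in wild type). With salviolone 1 was lower, over all transgenic mice 3, in the model control 2 and in the combination 0. The part of these 4 lists in the result was not tested. In whole tissue, more cells of a type and more RNA per cell cannot be told apart.

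**Figure D2:**
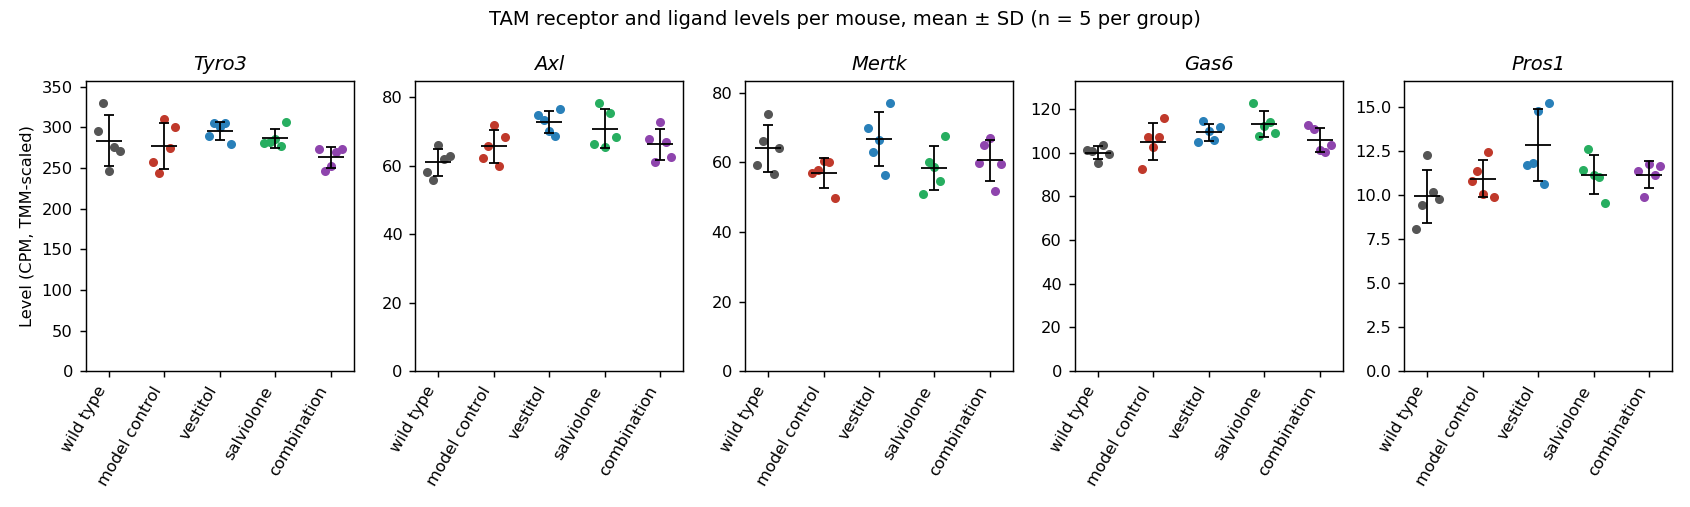
Level of each TAM gene in each mouse (points, CPM from TMM-scaled library sizes) by group, with mean ± SD (black, n = 5 mice per group). Axl in the 5 vestitol mice (68.8 to 76.5 CPM) and Gas6 in the 5 salviolone mice (108 to 123 CPM) lie above every wild type mouse, and the Tyro3 and Mertk groups overlap with wild type.

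Mertk, the receptor of engulfing microglia and astrocytes, gave no call in any comparison. Wild type mice had 59.3, 66.1, 74.0, 56.5 and 64.1 CPM. The model control had 57.1, 57.7, 60.3, 60.2 and 49.7 CPM. Vestitol mice had 70.0, 62.9, 66.4, 56.5 and 77.2 CPM. All 5 model control mice lay below the wild type mean of 64.0 CPM, yet the ranges overlapped. Salviolone mice had 51.0, 59.99, 58.7, 54.7 and 67.6 CPM. Combination mice had 59.8, 65.1, 66.9, 51.7 and 59.6 CPM. The difference between the model control and wild type was -0.17 (log2, 95% interval -0.35 to 0.01; adjusted p = 0.237 in edgeR), in the opposite direction to Axl, whose change was 0.11. Whether the receptors differ in their response was not tested.

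Tyro3, the neuronal receptor, also gave no call. Wild type mice had 295, 331, 246, 275 and 270.4 CPM. The model control had 257, 244, 310.3, 275 and 300.2 CPM. Vestitol mice had 289.8, 305, 300.4, 305 and 279 CPM. The spread among wild type and model control mice was wide, with SDs of 31.6 and 28.0 CPM, against 11.3 to 12.5 CPM in the treated groups. Salviolone mice had 281, 282, 286, 278 and 307 CPM. Combination mice had 273, 247, 253, 269.9 and 273 CPM. Every combination mouse was below every vestitol and every salviolone mouse. The summed neuron markers were split in the same way, but the mean of their log2 CPM was not. By that mean combination mice 2 and 3 stood at 9.19 and 9.20, above vestitol mouse 5 and salviolone mouse 2 (both 9.18). The part of the neuron markers in the Tyro3 difference was not tested. Single neuron markers went both ways, with 3 higher and 3 lower in the combination than with vestitol.

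Between each treatment and the model control 0 of 5 members were called. For vestitol the share of all genes called was 0%, with 0 genes by limma-voom and 45 by DESeq2. Of the members, 3 had an unadjusted p under 0.05 in edgeR, beside 7.56% of all genes. Mertk was higher by 0.22 (95% interval 0.04 to 0.41, adjusted p = 0.567), Axl by 0.15 (adjusted p = 0.584) and Pros1 by 0.23 (adjusted p = 0.637). For salviolone the share of all genes called was 0.0242%. Gas6, at 0.11 (adjusted p = 0.432), was the only member under an unadjusted p of 0.05 in edgeR, beside 11.5% of all genes. For the combination 15.0% of all genes were called, and none of the members had an unadjusted p under 0.05, beside 28% of all genes. The member with the smallest p was Tyro3, at -0.08 (95% interval -0.21 to 0.06). None of the 5 was called against the model control by DESeq2 or limma-voom either.

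Between the treatments 0 of 5 members were called as well. The combination held each compound at a lower dose than the single-compound groups did, so dose and combination cannot be told apart. Between the combination and vestitol 21.9% of all genes were called. Tyro3 was lower in the combination by -0.17 on the log2 scale (95% interval -0.31 to -0.03), in 5 of 5 mice, with an adjusted p of 0.0674 in edgeR. It passed the threshold with limma-voom (adjusted p = 0.0209) and in a fit of only these 2 groups (0.0115), and with the hypothalamus score as a covariate the difference was 0.05. Axl was the other member under an unadjusted p of 0.05 in edgeR, at -0.13 (adjusted p = 0.128), beside 33.5% of all genes. Between the combination and salviolone, where 17.9% of all genes were called, the Tyro3 difference was -0.12 (adjusted p = 0.222 in edgeR). No member had an unadjusted p under 0.05 there, beside 29.6% of all genes. Between vestitol and salviolone at the same dose, 0.684% of all genes were called. The largest member differences were 0.20 for Pros1 (95% interval -0.02 to 0.43) and 0.19 for Mertk (0.01 to 0.37, adjusted p = 0.392 in edgeR). Mertk was the only member under an unadjusted p of 0.05, beside 11.7% of all genes. DESeq2 called no member between treatments.

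**Figure D3:**
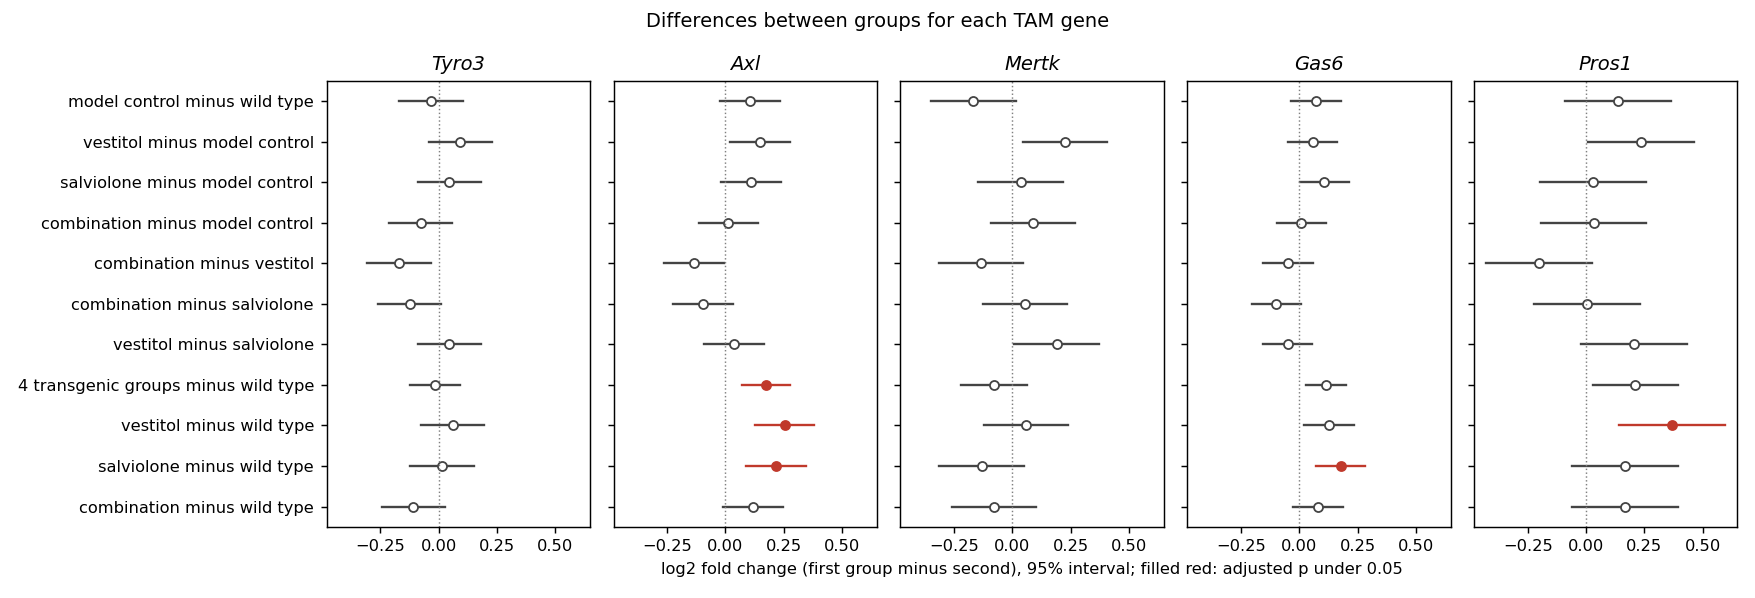
Log2 fold change of each TAM gene in 11 comparisons, first group minus second, with 95% intervals from edgeR; filled red points have an adjusted p under 0.05. The 5 red points, for Axl, Gas6 and Pros1, all lie in comparisons with wild type.

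The genes around the TAM system were taken from a list of 67 genes in 9 groups, of which 63 were tested. Between the model control and wild type 6 rose and 2 fell, which is 12.7% of the tested list, near the 11.6% of all genes, with a median over the tested genes of 0.04 against -0.01 for all genes. Among the 12 tested of 14 other receptors for phosphatidylserine, 3 rose. Trem2, the lipid receptor of microglia, went from 9.38 ± 1.41 to 22.2 ± 2.32 CPM (log2 1.24, adjusted p = 0.00011), with the ranges apart. The integrin subunits Itgb3 and Itgb5, partners of Itgav in binding the bridging protein Mfge8, rose by 0.56 and 0.35. Of the 8 genes that move phosphatidylserine across the membrane 2 fell, the scramblases Xkr8 by 0.53 and Ano6 by 0.37. Of 9 engulfment genes 1 rose, the focal adhesion kinase Ptk2, by 0.30. Of 12 signalling genes 2 rose, among them the lipid kinase subunit Pik3ca by 0.34. None was called among the vitamin K cycle and carboxylation genes (5), the sheddases and their inhibitor (3), the nuclear receptors and their target (7), the tested bridging proteins (3) or the tested protein C genes (4). Of the 8 calls 1 passed with the hypothalamus score as a covariate, that of Trem2 (1.31, adjusted p = 0.00224), and the same 1 in a fit of only these groups.

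Over all transgenic mice 6 of these genes rose and 2 fell against wild type, 12.7% of the list beside 14.1% of all genes. Among the called genes were Trem2 (1.26), Itgb5 (0.38), Itgb3 (0.49), Pik3ca (0.20), the lipid receptor Cd300lf (3.11, from 0.137 ± 0.140 to 1.33 ± 1.14 CPM), Ano6 (-0.27) and the scramblase Xkr4 (-0.35). Of these, 5 passed with the hypothalamus score as a covariate, and 3 did not, among them Ano6 (-0.21, adjusted p = 0.0998) and Pik3ca (0.15, adjusted p = 0.13). Over all 38 alternatives Ano6 ran from -0.36 to -0.21 and Pik3ca from 0.15 to 0.28. Leaving out single wild type mice gave counts of 5 (mouse 1), 15 (mouse 2) and 3 (mouse 4). Plaque microglia markers rose in the same comparison: 7 of 10 were called higher, with none lower.

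Vestitol and salviolone each changed 0 of the 63 tested genes against the model control, and DESeq2 called 1 for vestitol and 0 for salviolone. With either compound 6 of the 63 had an unadjusted p under 0.05 in edgeR, beside 7.56% (vestitol) and 11.5% (salviolone) of all genes. The combination changed 9, or 14.3% of the list, near the 15.0% of all genes. Xkr8 rose from 6.75 ± 1.58 to 11.9 ± 0.585 CPM (0.82, adjusted p = 0.000384) and Ano6 by 0.37, both with the ranges apart. Ptk2 (-0.50), Pik3ca (-0.39), Pik3r1 (-0.29), Itgb3 (-0.46), Itgav (-0.30), the nuclear receptor Pparg (-0.90) and the clotting factor F5 (-2.52) fell. F5 and Itgav were the least stable of these: F5 was called in 12 of 22 alternatives (-2.80 to -1.06) and Itgav in 14 of 24 (-0.37 to -0.16). For F5 the difference was -1.45 (adjusted p = 0.191) without model control mouse 4, the highest of its group at 11.1 CPM, and -1.11 (adjusted p = 0.193) with the choroid plexus score as a covariate. Leaving out single mice ended the call of F5 for combination mice 2, 4 and 5 as well, and that of Itgav for model control mice 1, 2, 4 and 5 and combination mice 2 and 5. In the same comparison 9 of 10 hypothalamus markers rose, and with that score as a covariate 0 of the 63 genes were called. The count of called genes was 12 for the combination against vestitol (19.0%, beside 21.9% of all genes) and 10 against salviolone (15.9%, beside 17.9%), and 0 in both with that covariate.

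**Figure D4:**
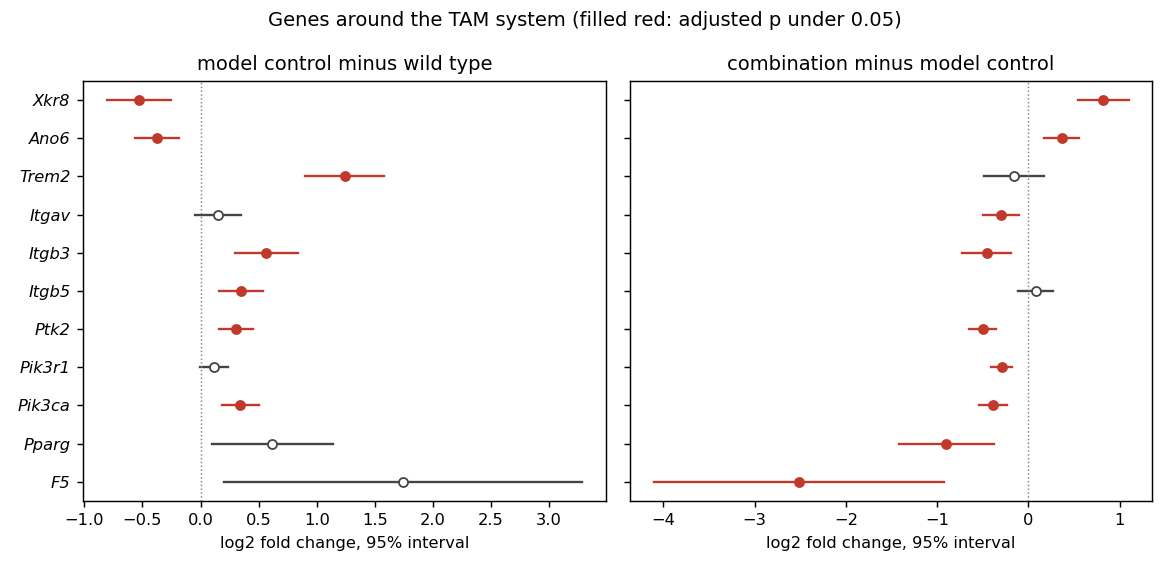
Log2 fold change with 95% interval from edgeR for 11 of the 12 genes around the TAM system called in at least 1 of the comparisons shown: model control minus wild type (left) and combination minus model control (right). Filled red points have an adjusted p under 0.05; Xkr8 and Ano6 are low on the left and high on the right, and the panels share the model control mice.

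Relations between the members were sought among mice of the same group. Group means were subtracted from log2 CPM and the 10 pairs of members were compared over 25 mice. The strongest relation was that of Tyro3 and Pros1, with Pearson's r of -0.50 (permutation p = 0.0236, adjusted p = 0.235) and Spearman's rho of -0.47 (permutation p = 0.0316, adjusted p = 0.316), and r was -0.41 without the 2 mice farthest from the median of Tyro3. No pair passed after adjustment, which with 25 mice does not show that the members vary independently. The members were likewise set against 16 marker list scores, 80 relations in all, chosen after the data were seen, and none passed after adjustment. Unadjusted, 10 of the 80 had a permutation p under 0.05. Among them were Tyro3 with the hippocampus score (r = -0.67, adjusted p = 0.182) and Mertk with the endothelium score (r = 0.58, adjusted p = 0.214). Pros1 came closest, with the plaque microglia score (r = 0.58, permutation p = 0.00063, adjusted p = 0.0504; rho = 0.65, adjusted p = 0.0624; r = 0.59 without the 2 farthest mice).

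The genes whose levels varied most like each member among mice of a group were sought among 12713 genes, as a description with no test. Tyro3 was closest to Ngef (r = 0.84), Naa12 (0.81) and Tnnc1 (0.81). Axl was closest to Sh3pxd2b (0.74), Lyz2 (0.70), the lysozyme of myeloid cells, and Ncs1 (0.68). Mertk was closest to Paqr5 (0.81), to Slc2a1 (0.81), the glucose transporter of brain endothelium, and to Mfsd2a (0.80), its lipid transporter. Gas6 was closest to Sdk2 (0.72), Rab3a (0.72) and Fn3krp (0.67). Itgb5 (0.74) and Elf1 (0.73) were among the 3 closest to Pros1. The points share library depth and dissection, and high r values are found by searching many genes.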

How the data were processed

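Cortex RNA of 25 mice was sequenced, 5 per group. Per the submitters' processing notes, reads were trimmed with Trim Galore and aligned with STAR on mm39. Which versions, gene models, counter and strandedness were used is not given in the sources used here. Raw counts per gene and FPKM were deposited by the authors for the same libraries. Of counts from 4 to 39, 44.3% were multiples of 4, for which no reason is given, so counts divided by 4 were also tested.

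Members and gene lists were chosen with earlier results of these data known. Genes were filtered with filterByExpr (minimum count 10) and fitted over all 25 mice in edgeR 4.0.16 (R 4.3.3) with TMM and the robust quasi-likelihood test, two-sided, adjusted by Benjamini-Hochberg over 16515 genes. Replicate numbers were not taken as pairs: in no comparison did a same-numbered pair correlate above 0.1. Named genes were the members, called list genes (at most 12 per comparison) and the 3 genes most like each member, of which a few are left out and not reported here. Alternatives were RLE factors, other filters, DESeq2 1.42.0, limma 3.58.1 (voom, or log2 FPKM plus 0.1 or 1), fewer groups, a replicate block, marker scores as covariates, no mitochondrial genes and each mouse left out. Correlations used 100000 permutations. The test was checked on simulated counts with changes larger than those of the members, so that check does not cover differences of their size. The edgeR p-values set a difference of group means against the spread between mice within groups. Permutation p-values set r or rho against shuffled mice.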

Additional observations from a re-analysis of the deposited data

Results flagged for a closer look

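In salviolone mouse 5, Tyro3 stood at 306.9 CPM, apart from the other 4 mice of its group (278 to 286 CPM). Its gap to the next mouse was 0.714 of the group's range, just past the limit of 0.71 for 5 samples. It was the only one of 25 sets of 5 mice (5 genes in 5 groups) to pass, and chance passes about 1 group in 20.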

How the results depend on the processing

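Under RLE size factors, no filter on low counts, 3 fits on FPKM, counts divided by 4 and the library size without mitochondrial genes, every member call was kept and none was gained, as with DESeq2. A fit of only the groups compared was not run for the mean of the transgenic groups, which uses all of them. The log2 differences of uncalled members near 0 changed sign in some settings, and the cause was not tested. Pros1 between the combination and salviolone was -0.0038 with RLE, -0.0032 with at least 1 CPM in 5 samples, -0.0035 with DESeq2, -0.11 with the hypothalamus covariate and -0.000042 with the choroid plexus covariate. With limma-voom Gas6 was -0.0012 for the combination against the model control and Tyro3 was 0.0026 over the transgenic mice, while Tyro3 was called between the combination and vestitol (-0.18), which made 1 called member. A fit of only the 2 groups also called 1 there (Tyro3, -0.17), and called 1 for vestitol against wild type, where Pros1 (0.37) was lost. Over the transgenic mice Gas6 was also called with the stricter filter (0.12) and with the choroid plexus covariate (0.11), for 2 called members in each. With the latter Gas6 was called for vestitol against wild type (0.16), and Axl was -0.0025 for the combination against the model control.

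The hypothalamus covariate left 0 called members over the transgenic mice, 0 with vestitol and 0 with salviolone against wild type (Axl 0.18, 0.26 and 0.22, Pros1 0.44 with vestitol, Gas6 0.13 with salviolone). It turned Tyro3 to 0.12, 0.045 and 0.058 for the combination against the model control, vestitol and salviolone, and to -0.052 and -0.065 for vestitol and salviolone against wild type. Pros1 for the combination against the model control became -0.084, and Gas6 against vestitol 0.062. A covariate that differs between the groups cannot be fully separated from them in the fit. Without it the differences of the lost calls were 0.17, 0.25 and 0.22 for Axl, 0.37 for Pros1 and 0.18 for Gas6.

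Leaving out each mouse in turn gave log2 differences over the transgenic mice of 0.146 to 0.204 for Axl, 0.097 to 0.125 for Gas6 (called without model control mouse 1), 0.144 to 0.296 for Pros1 (called without wild type mouse 3) and -0.063 to 0.046 for Tyro3, with 0 to 2 members called. Against wild type, vestitol gave 0.301 to 0.456 for Pros1 and -0.0013 to 0.115 for Mertk with 1 to 2 members called, and salviolone gave 0.175 to 0.247 for Axl, 0.146 to 0.194 for Gas6 and -0.032 to 0.076 for Tyro3 with 1 to 2 called. Tyro3 in the model control against wild type ran from -0.079 to 0.031. Against the model control, the combination gave -0.029 to 0.046 for Axl, -0.039 to 0.045 for Gas6 and -0.0044 to 0.081 for Pros1, and salviolone gave -0.023 to 0.078 for Pros1 and -0.025 to 0.077 for Mertk. Pros1 between the combination and salviolone ran from -0.048 to 0.053, and r of Gas6 and Pros1 from -0.159 to 0.017. The mice whose loss ended a call are named with the calls.

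Of the mice with the same replicate number, 0 of 5 pairs correlated above 0.1 in any of the 7 comparisons of 2 groups. That limit cannot exclude a weak factor shared by number. Between the combination and vestitol 6 of 10 mice were closest to their own number, the most of any comparison. The mean r there was 0.042 for the same number and -0.010 for other numbers. With the replicate block no member call changed: Axl over the transgenic mice was 0.17 (adjusted p = 0.029 in edgeR). Over all genes the block moved the count by over 1.5 times for salviolone against the model control, from 4 to 29.

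For relations among mice, without subtraction of group means r was 0.060 for Tyro3 and Axl, 0.35 for Axl and Gas6, 0.56 for Axl and Pros1 (permutation, adjusted p = 0.0358) and 0.21 for Gas6 and Pros1. On log2 FPKM, Gas6 and Pros1 gave 0.00038. Without the 2 farthest mice, Tyro3 and Axl gave 0.059. With 5 mice per group, the 95% intervals between the model control and wild type ran from -0.02 to 0.23 for Axl and from -0.09 to 0.36 for Pros1 on the log2 scale, which limits how precisely a difference is known.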
